A study of Mus musculus with 6 samples.

Results

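Transcripts of 76 genes for chromatin-modifying enzymes and corepressors were followed in mouse leukemia progenitors and their normal counterparts. The genes were taken by symbol: the numbered histone deacetylases and sirtuins, Ncor and Sin3 scaffolds, Dnmt and Tet genes, Kdm demethylases, Kmt2 methyltransferases, the Polycomb repressive complex 2 (PRC2) genes Ezh, Suz12 and Eed, the acetyltransferases Kat, Ep300 and Crebbp, Prmt genes and Smarc genes. The sex-linked Kdm5c, Kdm5d and Kdm6a were left out, and each gene is represented by the probe set with the highest mean log2 intensity over the 6 arrays. They are 76 of 13146 genes that 1 or more single-symbol probe sets named on the Affymetrix Mouse430_2 array, and all 76 matched RefSeq by gene ID under the same symbol. Ncor1 and Tet3 were not analysed here.

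The leukemia group comprised 3 spleen samples, 1 from each of 3 numbered MF1 mice that had received lethal irradiation and a graft of hematopoietic progenitors transduced with AE9a (AML1-ETO9a, a shortened form of the t(8;21) fusion protein). The wild-type group comprised 3 bone marrow samples of MF1 mice, for which the labels give no mouse numbers. All animals were 12 to 16 weeks old, all samples were sorted Lin-/Sca1-/cKit+ cells, a fraction of committed myeloid progenitors, and each array received material from 200 ng of total RNA. Leukemia, spleen, transplantation and irradiation therefore coincide and cannot be told apart in any difference below, and the grafted cells were not separated from host cells as far as the labels say. No label says whether wild-type samples came from separate animals, so the p-values cover the spread among these samples alone, part of which may be technical. In sorted bulk RNA, fewer cells of a type and less RNA per cell cannot be told apart.

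Acetyl groups on histone tails are added by acetyltransferases and removed by deacetylases, which act in complexes built on scaffolds such as Sin3a and NCoR. DNA methylation is laid down by Dnmt enzymes and oxidised by Tet enzymes, while Kmt2, PRC2 and Kdm proteins write and erase histone lysine methylation, Prmt enzymes methylate arginine, and Smarc proteins move nucleosomes. AML1-ETO binds DNA through the Runt domain of RUNX1 and recruits NCoR, Sin3 and histone deacetylases through its ETO part, and the 9a form lacks the carboxy-terminal ETO domains that contact NCoR.

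Since the Runt domain recognises the letters TGTGGT and TGCGGT, both strands of the 250 bases before each RefSeq transcription start (GRCm38.p6) were searched for them. Of 86 listed starts belonging to 64 members, 16 held a match (18.6%), and so did 18.6% of all 32851 listed starts, so the share among members was that of starts in general. By gene, a match stood before 1 of the 8 raised, 6 of the 26 lowered and 7 of the 29 members that did not pass the test described below, among those with a listed start. The matches of raised or lowered members are shown with up to 20 bases on either side, 5′ to 3′ on the gene's strand, with the match in capitals, because these are the places where the fusion's DNA-binding letters occur near members that changed. A match is only a run of letters and not a binding site.
Hdac2 (chr10:36974451-36974496, plus strand): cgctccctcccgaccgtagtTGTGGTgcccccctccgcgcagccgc
Hdac6 (chrX:7948094-7948139, minus strand): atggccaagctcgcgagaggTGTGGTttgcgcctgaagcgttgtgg
Kat2b (chr17:53583999-53584044, plus strand): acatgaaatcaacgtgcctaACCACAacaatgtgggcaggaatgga
Sirt2 (chr7:28766560-28766605, plus strand): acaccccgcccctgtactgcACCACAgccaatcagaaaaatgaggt
Sirt3 (chr7:140882312-140882357, minus strand): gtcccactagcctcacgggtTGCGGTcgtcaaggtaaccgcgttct
Smarcad1 (chr6:65043118-65043163, plus strand): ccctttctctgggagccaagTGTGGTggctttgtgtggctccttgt
Smarcal1 (chr1:72583068-72583113, plus strand): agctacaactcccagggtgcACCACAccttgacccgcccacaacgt

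Tet1, the member with the largest difference, has no match in its 250 bases (chr10:62887325-62887574, minus strand, shown in lower case throughout).
Tet1: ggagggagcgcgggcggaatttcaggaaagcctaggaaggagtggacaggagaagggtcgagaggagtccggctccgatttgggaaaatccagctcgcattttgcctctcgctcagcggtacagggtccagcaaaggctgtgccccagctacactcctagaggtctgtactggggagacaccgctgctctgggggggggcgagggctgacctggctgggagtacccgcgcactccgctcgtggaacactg
The window holds 15 CG dinucleotides, against a median of 17.5 over the 86 starts of members and 6 over all listed starts.

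The arrays had median deposited intensities of 71.6 to 79.9, and their number limits the precision of every value. Pearson's r between arrays was at least 0.969 inside the leukemia group, at least 0.992 inside the wild-type group and at most 0.925 across groups. In the file headers leukemia replicate 1 shared its hybridization entry with the wild-type arrays, whereas leukemia replicates 2 and 3 shared another. Arrays with the same entry are called a fluidics run here, a name the entry itself does not give. Leukemia replicate 1 had an array weight of 0.191 where the other 5 arrays had 0.831 to 2.82. A control probe set at the 5′ end of 18S rRNA was at 11.14 to 12.35 log2 on leukemia arrays and 7.77 to 9.41 on wild-type arrays. The 3′ minus 5′ difference of Gapdh, another sign of RNA quality, was 0.31, 0.08 and 0.01 log2 in leukemia and -0.14, -0.10 and -0.06 in wild-type, without overlap. That of Actb was 0.70, 0.31 and 0.34 in leukemia and 0.32, 0.50 and 0.45 in wild-type, highest on leukemia replicate 1. The sort marker Kit was called lower by 0.76 log2, and Ly6a was not analysed here. Cd34, which the labels do not name for the sort, was called lower by 3.60 log2. Among marker lists of other cells, mast cell and basophil markers summed to intensities of 13270 to 24820 on leukemia arrays and 4400 to 4910 on wild-type arrays, with 5 of 7 higher and 1 lower. Monocyte and macrophage markers summed to 177 to 240 on leukemia arrays and 1811 to 2937 on wild-type arrays (0 of 8 entries higher, 5 lower). On every leukemia array 7 of the 8 entries were dimmer than that array's 40th percentile of probe sets. Adgre1 was listed under both an old and a current symbol, so its single probe set enters these counts and sums more than once. T and NK cell markers summed to 245 to 272 on leukemia arrays and 2166 to 2782 on wild-type arrays (1 of 3 higher, 1 lower). Nkg7 alone made most of that gap, at 7.57 log2 in leukemia and 11.20 in wild-type. Cd247 was higher in leukemia by 1.36, and Cd8a was too dim to test. Sums for proliferation markers were 18310 to 20800 in leukemia and 17300 to 18060 in wild-type (2 of 7 higher), and those of erythroid markers overlapped (5743 to 10260 in leukemia, 6704 to 10370 in wild-type). Even so, 2 of 6 erythroid markers were called higher and 0 lower: Alas2 differed by 3.87 log2 and Slc4a1 by 3.16, both below the 40th percentile on all wild-type arrays. All 6 measured neutrophil markers, 6 of 7 stromal and endothelial markers and 4 of 5 B cell markers were below that percentile in all leukemia samples, as were 1, 4 and 2 of them in all wild-type samples. Neutrophil markers summed to 99.1 to 106 in leukemia and 159 to 712 in wild-type, and stromal markers to 105 to 147 in leukemia and 484 to 566 in wild-type. Pecam1 was the brightest stromal marker in wild-type, at 8.31 log2 against 3.70 in leukemia. The B cell sums overlapped (115 to 275 in leukemia, 265 to 394 in wild-type). The sums of the other lists did not overlap between groups. The part of any of them in the differences below was not tested.

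Across the 75 members bright enough to test, more transcripts were lower than higher in the leukemia cells, and most changes were small. A gene was tested where 3 or more arrays had it at or above their own 40th percentile of intensity. Leukemia and wild-type were compared with limma on log2 intensities and p-values were adjusted over all 9715 genes tested. At an adjusted p under 0.05, 9 members rose and 29 fell, or 50.7% of 75, where 42.1% of all tested genes changed. The lowered share was 38.7% of members beside 25.2% of all tested genes, and the raised share was 12.0% beside 16.9%. A change of at least 2-fold was called for 7 members (9.33%), 2 higher and 5 lower, and for 19.0% of all tested genes (7.46% higher and 11.6% lower). The median difference, leukemia minus wild-type, was -0.14 log2 over tested members and -0.09 over all tested genes, and the median size of a difference regardless of sign was 0.40 in both. The groups did not overlap for 49 members (65.3%), nor for 59.2% of all tested genes. All 38 changed members were without overlap, but that share was not counted over all changed genes, so it has no comparison. Of the 76 members, 70 were above the 40th percentile on all 6 arrays, and among the changed members Tet1 and Hdac11 passed the filter through 1 group alone. With leukemia replicate 1 left out the counts were 10 higher and 31 lower, where 19.9% of all tested genes were higher and 28.6% lower. Without wild-type replicate 1, 2 or 3 the lower members numbered 17, 16 and 16 of 75 (17.8%, 16.8% and 15.6% of all tested genes in the same fits) and the higher members 5, 6 and 5 (11.5%, 11.4% and 11.7% of all tested genes). Centring each array on its median moved the median of members to -0.07 and that of all tested genes to -0.01. Blocking on fluidics run, where leukemia replicate 1 supplies the whole difference, moved the members' median to -0.31 (all tested genes -0.10). That block ended the calls of Dnmt3b, Hdac4, Sirt5, Kat2b, Kdm4a and Kdm4b and called Ezh1, Ezh2, Suz12, Kdm5a, Prmt2 and Prmt7, which had not passed.

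**Figure D1:**
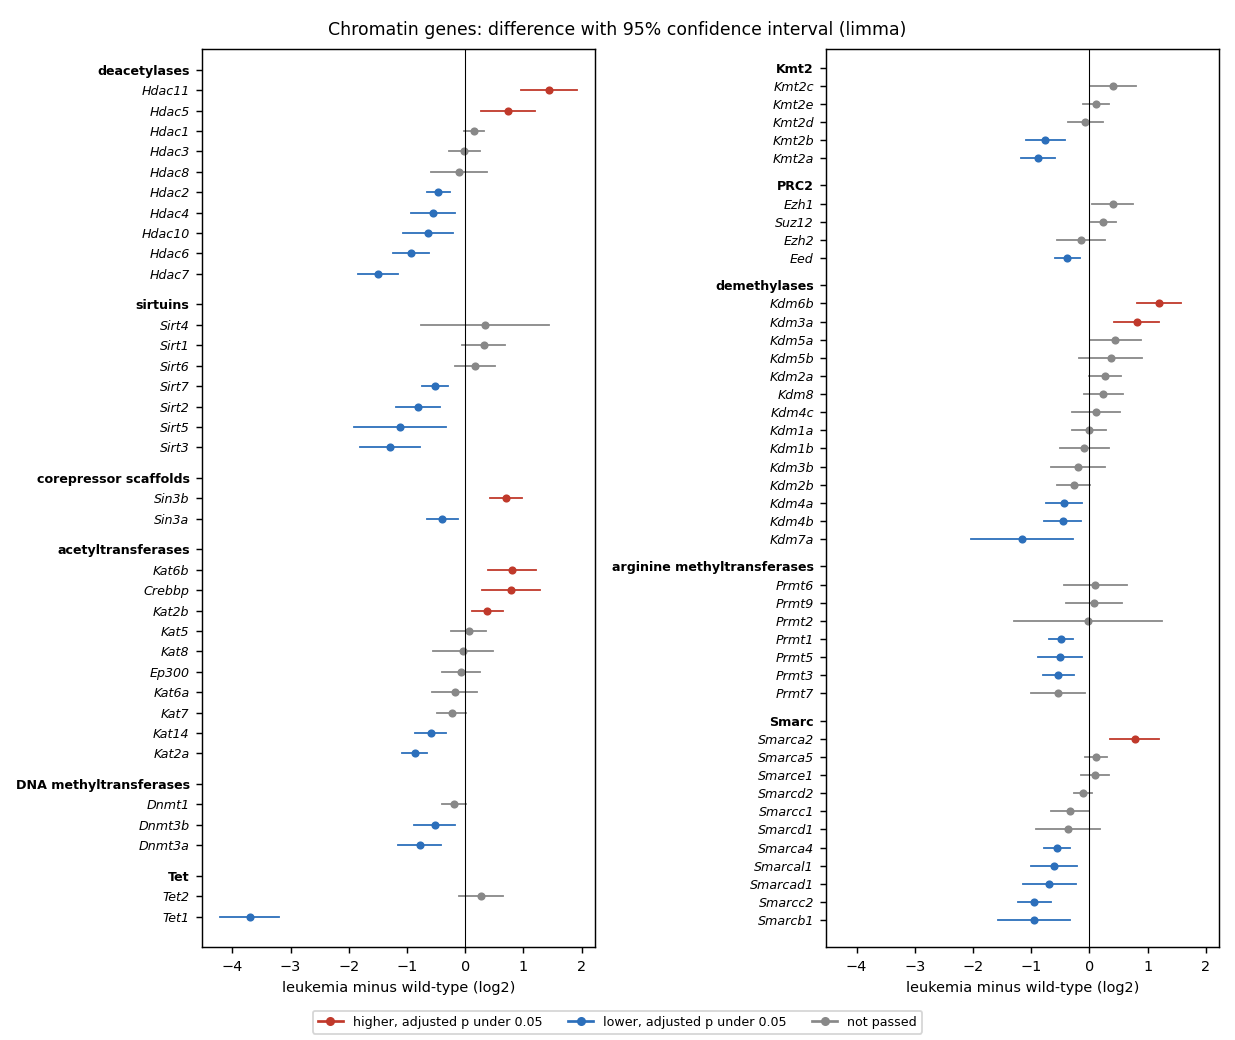
Difference in log2 intensity, leukemia minus wild-type, for each of the 75 tested members by role class, as a point with its 95% confidence interval from limma (n = 3 each). Tet1 lies at -3.70, and 68 of the 75 members lie within 1 log2 unit of 0.

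DNA demethylation and methylation genes included the member with the largest difference. Tet1, an enzyme that oxidises 5-methylcytosine, was at 3.08, 3.29 and 3.06 log2 on the leukemia arrays and at 6.50, 7.21 and 6.83 on the wild-type arrays. All 3 leukemia values lay below the 40th percentile and all wild-type values above it. Tet1 therefore passed the filter through wild-type alone, and the size of its fall is limited by background. Tet1 fell by 3.70 ± 0.21 log2 (SE, limma adjusted p = 3.14e-05). Its remaining probe sets were too dim to test and were also lower without overlap, by -0.99 and -1.72 log2, and the difference was -2.40 with 16 added before the log and -2.14 with the mean of its probe sets. Tet2, a paralogue that is often mutated in human myeloid disease, did not pass (8.45 ± 0.18 log2 in leukemia, 8.18 ± 0.21 in wild-type, SD, n = 3 each, difference 0.27, 95% interval -0.10 to 0.65), although its other probe set was higher without overlap (0.67).

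Of the DNA methyltransferases 2 of 3 fell (66.7%, beside 25.2% of all tested genes). Dnmt3a, a de novo methyltransferase, was at 7.53, 7.36 and 7.58 log2 in leukemia and at 8.02, 8.38 and 8.43 in wild-type. Leukemia lay below wild-type throughout, and Dnmt3a fell by 0.79 ± 0.16 log2 (SE, limma adjusted p = 0.00718). It has 5 probe sets, and the further 4, all bright enough to test, gave -1.07 to -0.93, 1 of them with overlapping groups. Dnmt3b, the other de novo enzyme, fell by 0.53 (limma adjusted p = 0.0270), and its second probe set gave -0.87. Dnmt1, the maintenance methyltransferase, was lower on every leukemia array than on any wild-type array (10.77 ± 0.10 and 10.96 ± 0.12 log2, SD, n = 3 each), but its difference of -0.19 did not pass (limma adjusted p = 0.124), and its further probe sets went the other way without overlap (0.19 and 0.24). The call of Dnmt3b was lost when any 1 wild-type array was left out (adjusted p under limma above 0.05 each time).

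**Figure D2:**
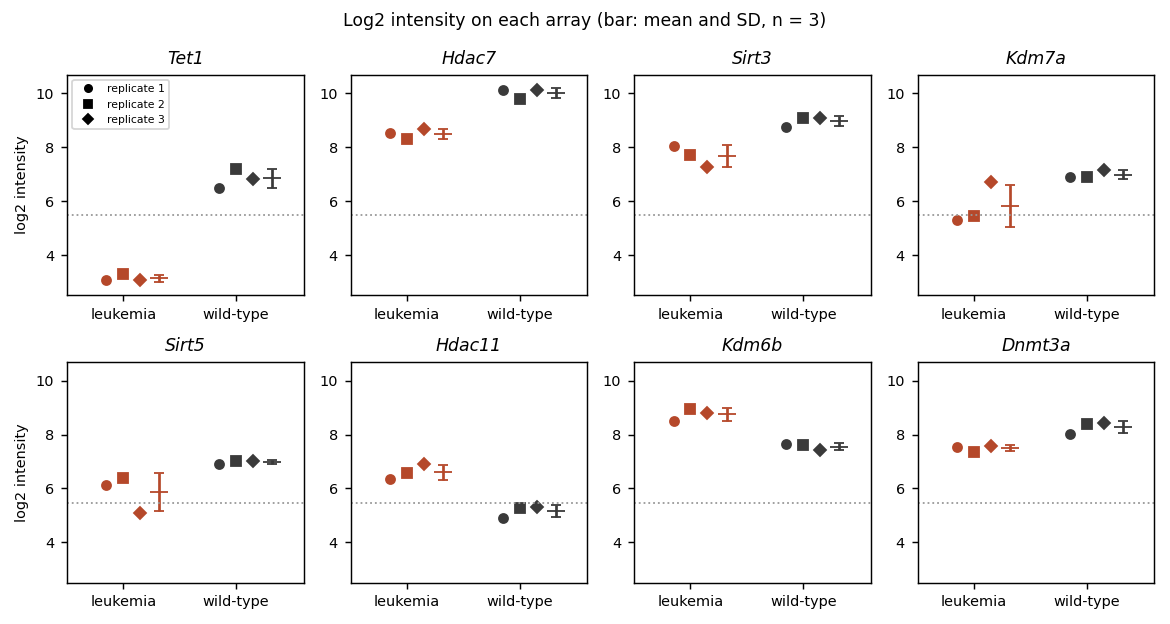
Log2 intensity on each array for the 7 members changed at least 2-fold and for Dnmt3a, leukemia left and wild-type right, symbols marking replicates 1 to 3 and bars the mean and SD (n = 3). The dotted line is the mean of the arrays' 40th percentiles. The Tet1 values of leukemia lie below it and those of Hdac11 in wild-type do too.

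Among the classical histone deacetylases 2 rose and 5 of 10 tested fell, where 16.9% of all tested genes rose and 25.2% fell. Those of class IIa moved in both directions. Hdac7, a class IIa enzyme that represses transcription with MEF2 factors, was at 8.53, 8.30 and 8.67 log2 in leukemia and at 10.11, 9.79 and 10.11 in wild-type. Every leukemia value lay more than 1 log2 unit below every wild-type value, a fall of 1.51 ± 0.14 (SE, limma adjusted p = 2.91e-04), and the second probe set gave -1.39. Hdac5 of the same class rose by 0.73 (8.61 ± 0.35 against 7.88 ± 0.14 log2, SD, n = 3 each; limma, adjusted p = 0.0232). Hdac4 fell by 0.55 (limma adjusted p = 0.0289). Hdac9, the remaining gene of that class, was not tested because it stayed below the 40th percentile on all 6 arrays, at 3.02 ± 0.17 in leukemia and 4.44 ± 0.12 in wild-type.

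Hdac11, the only class IV deacetylase, was at 6.35, 6.58 and 6.90 log2 in leukemia and at 4.92, 5.28 and 5.30 in wild-type. All its wild-type values lay below the 40th percentile, so it passed the filter through leukemia alone and background limits the size of its rise. It was the largest rise among members, 1.44 ± 0.20 log2 (SE, limma adjusted p = 0.00165), and its dimmer probe set was also higher without overlap (1.29). Hdac6, a cytoplasmic tubulin deacetylase encoded on the X chromosome, was at 7.35, 7.63 and 7.55 log2 in leukemia and at 8.45, 8.52 and 8.36 in wild-type and fell by 0.93 (limma adjusted p = 0.00158). Xist, the RNA of the silenced X, measured 11.02, 9.41 and 5.03 log2 on leukemia arrays 1, 2 and 3 and 4.23 to 4.73 on wild-type arrays. The Y-linked Eif2s3y measured 3.02, 8.46 and 9.05 in leukemia and 8.12 to 8.22 in wild-type. These sex-linked transcripts therefore differed among leukemia samples, and their part in the Hdac6 difference was not tested.

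Of the nuclear class I enzymes only Hdac2 was called. Hdac2, a catalytic subunit of the Sin3, NuRD and CoREST complexes, fell by 0.46 (10.39 ± 0.10 against 10.85 ± 0.07 log2, SD, n = 3 each, limma adjusted p = 0.00451). That probe set carries an ending for shared sequence, and a further bright one gave -0.74 without overlap. Hdac1, the close paralogue of Hdac2, was higher on every leukemia array, but the difference of 0.15 did not pass (95% interval -0.02 to 0.31). Hdac3, the deacetylase of the NCoR complex, was at 8.77 ± 0.12 in leukemia and 8.78 ± 0.07 in wild-type (difference -0.01, 95% interval -0.28 to 0.25). The calls of Hdac5 and Hdac10 (fell by 0.63) were lost without any 1 wild-type array or without leukemia replicate 2, and that of Hdac4 without wild-type replicate 2 or 3 or leukemia replicate 2 or 3.

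Sirtuins, the NAD-dependent deacylases, included 4 of 7 that fell (57.1%) and 0 that rose, beside 25.2% and 16.9% of all tested genes. Both sirtuins changed at least 2-fold are mitochondrial enzymes. Sirt3, the main mitochondrial deacetylase, was at 8.06, 7.72 and 7.26 log2 in leukemia and at 8.76, 9.07 and 9.07 in wild-type. All leukemia values were lower, and Sirt3 fell by 1.29 ± 0.22 (SE, limma adjusted p = 0.00371). Sirt5, a mitochondrial desuccinylase, was at 6.13, 6.38 and 5.08 in leukemia and at 6.91, 7.04 and 7.01 in wild-type, with leukemia replicate 3 the lowest. It fell by 1.12 (limma adjusted p = 0.0326), or 0.73 without leukemia replicate 3, and the call was lost when any 1 wild-type array was left out. Blocked on fluidics run it was at -0.85 and did not pass (limma adjusted p = 0.168). Sirt2, a cytoplasmic enzyme, fell by 0.81 and the nucleolar Sirt7 by 0.52 (limma adjusted p = 0.00669 and 0.00455). The third mitochondrial member, Sirt4, did not pass, with 5.37, 7.12 and 7.06 in leukemia and 6.18 ± 0.17 in wild-type (SD, n = 3). Leukemia replicate 1 was below and replicates 2 and 3 were above all wild-type arrays, and without replicate 1 Sirt4 was higher by 0.91 (limma adjusted p = 0.00454).

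Of the corepressor scaffolds, Sin3a and Sin3b were measured. Sin3a, which holds Hdac1 and Hdac2 in one complex, was at 9.03, 9.21 and 9.27 log2 in leukemia and at 9.47, 9.68 and 9.54 in wild-type, and fell by 0.39 (limma adjusted p = 0.0266). Leaving out any 1 wild-type array ended that call. Its paralogue Sin3b gave different answers by probe set. The brightest was at 11.11, 10.80 and 10.75 in leukemia and 10.13, 10.13 and 10.30 in wild-type and rose by 0.70 (limma adjusted p = 0.00331), and further probe sets gave 0.54 and 0.82, each without overlap. The others gave -0.72 each, also without overlap, and when probe sets with an ending for shared sequence were dropped Sin3b fell by 0.72 (limma adjusted p = 0.0127). Its direction therefore depends on the probe set, and which transcript forms these detect was not tested.

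Acetyltransferases moved in both directions, with 3 of 10 higher and 2 lower, where 16.9% of all tested genes were higher and 25.2% lower. Kat2a (GCN5), the enzyme of the SAGA complex, was at 9.18, 9.31 and 9.35 log2 in leukemia and at 10.18, 10.07 and 10.21 in wild-type. The groups did not overlap, and Kat2a fell by 0.87 ± 0.09 (SE, limma adjusted p = 4.60e-04), while its further probe sets gave -1.05 and -1.67. Kat14, a subunit of the related ATAC complex, fell by 0.59 (limma adjusted p = 0.00607). Kat6b, a MYST family enzyme, rose by 0.81 (7.48 ± 0.27 against 6.67 ± 0.08 log2, SD, n = 3 each; limma, adjusted p = 0.00988). Kat2b (PCAF), the paralogue of Kat2a, rose by 0.38 (limma adjusted p = 0.0344).

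The p300 and CBP coactivators were measured too. Crebbp (CBP) was at 10.33, 9.66 and 9.56 log2 in leukemia and at 9.02, 9.20 and 8.96 in wild-type, highest on leukemia replicate 1. It rose by 0.79 (limma adjusted p = 0.0219), or by 1.27 in a fit blocked on fluidics run, where leukemia replicate 1 supplies the whole difference. Its further probe sets gave 0.65 and 0.10 and overlapped, and the call was lost when any 1 wild-type array was left out. Ep300, its partner gene, was at 8.49 ± 0.20 in leukemia and 8.56 ± 0.05 in wild-type (difference -0.07, 95% interval -0.39 to 0.25), and Kat6a (MOZ) did not pass either (difference -0.18, 95% interval -0.57 to 0.20). The call of Kat2b was lost without any 1 wild-type array or without leukemia replicate 2 or 3.

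Both histone H3 lysine 4 methyltransferases that changed were lower. Kmt2a (MLL), a regulator of Hox genes in blood progenitors, was at 7.92, 8.16 and 8.03 log2 in leukemia and at 9.01, 8.93 and 8.82 in wild-type. No leukemia value reached a wild-type one, and Kmt2a fell by 0.88 ± 0.12 (SE, limma adjusted p = 0.00142), while its other probe set gave -0.63. Kmt2b, its closest paralogue, fell by 0.76 (limma adjusted p = 0.00535). Kmt2c, Kmt2d and Kmt2e did not pass, with differences of 0.40, -0.07 and 0.12.

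Of the PRC2 genes 1 of 4 fell (25.0%, beside 25.2% of all tested genes). Eed, the subunit that reads trimethylated lysine 27, was at 9.97, 9.86 and 10.12 log2 in leukemia and at 10.34, 10.34 and 10.40 in wild-type and fell by 0.38 (limma adjusted p = 0.0153). Without any 1 wild-type array that call was gone. The catalytic subunit Ezh2 was at 10.11, 10.45 and 10.84 in leukemia and at 10.65, 10.50 and 10.68 in wild-type, with leukemia on both sides (difference -0.14, 95% interval -0.56 to 0.27). Ezh1, the alternative catalytic subunit, and Suz12, a core subunit, were higher without overlap but did not pass (differences 0.40 and 0.24, limma adjusted p = 0.0656 and 0.0747). Blocked on fluidics run these 3 were called, Ezh2 lower (-0.50, limma adjusted p = 0.0400) and Ezh1 and Suz12 higher (0.54 and 0.38, limma adjusted p = 0.0376 and 0.0129). Median centring also called Ezh1 and Suz12 higher (limma adjusted p = 0.0466 and 0.0493), and Ezh1 passed without an intensity trend or without leukemia replicate 2. The 4 further bright probe sets of Suz12 gave 0.13 to 1.11, and with the mean of probe sets Suz12 was called (0.50, limma adjusted p = 0.01005).

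Of 14 demethylase genes 2 rose and 3 fell (14.3% and 21.4%, beside 16.9% and 25.2% of all tested genes). Kdm6b (JMJD3), which removes methyl groups from lysine 27 and is induced by inflammatory signals in macrophages, was at 8.49, 8.95 and 8.81 log2 in leukemia and at 7.66, 7.60 and 7.41 in wild-type. The groups did not overlap, and Kdm6b rose by 1.19 ± 0.16 (SE, limma adjusted p = 0.00128). That probe set carries an ending for shared sequence, and the further ones gave 0.78 and 0.31, of which the brighter, used when shared endings were left out, did not pass (limma adjusted p = 0.0903). Kdm3a, a lysine 9 demethylase, was at 10.32, 9.73 and 9.81 in leukemia and at 9.12 to 9.16 in wild-type and rose by 0.81 (limma adjusted p = 0.00753).

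Kdm7a, which acts on lysines 9 and 27, was at 5.31, 5.45 and 6.73 log2 in leukemia and at 6.90, 6.90 and 7.17 in wild-type. Leukemia replicate 3 lay close to the wild-type arrays, and Kdm7a fell by 1.16 (limma adjusted p = 0.0430), and its second bright probe set gave -0.85. That call did not survive the loss of any 1 wild-type array or of leukemia replicate 1 or 2. Kdm4a and Kdm4b, which remove trimethylation of lysine 9, fell by 0.44 and 0.46 (limma adjusted p = 0.0322 and 0.0316). The call of Kdm4a was lost without any 1 wild-type array or leukemia replicate 2 or 3, and that of Kdm4b without any 1 wild-type array or leukemia replicate 3. Kdm1a (LSD1), the demethylase of the CoREST complex, was at 9.88 ± 0.22 in leukemia and 9.88 ± 0.04 in wild-type (95% interval of the difference -0.29 to 0.29). Kdm5b, a lysine 4 demethylase, did not pass with its brightest probe set (difference 0.37), and its further bright probe sets gave 1.46 without overlap and -0.09.

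Of the arginine methyltransferases 3 of 7 fell (42.9%) and 0 rose, beside 25.2% and 16.9% of all tested genes. Prmt1, the main source of asymmetric arginine methylation, was at 10.76, 11.06 and 10.86 log2 in leukemia and at 11.37, 11.33 and 11.44 in wild-type. Leukemia values were the lower ones, and Prmt1 fell by 0.49 ± 0.09 (SE, limma adjusted p = 0.00462). Prmt5, which makes symmetric dimethylarginine, fell by 0.51 (limma adjusted p = 0.0397), by 0.33 without leukemia replicate 1 and by 0.87 when blocked on fluidics run, and its call was lost when any 1 wild-type array was left out. Prmt3, a cytoplasmic enzyme that modifies a ribosomal protein, fell by 0.53 (limma adjusted p = 0.00990), but with the mean of its 5 probe sets it was at 0.22 and did not pass. Prmt2 was at 5.67 on leukemia replicate 1 and at 7.82 and 7.48 on replicates 2 and 3, with wild-type at 6.65 to 7.24, and its mean difference of -0.03 therefore hides arrays on both sides.

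The chromatin remodelling genes included both ATPases of the SWI/SNF complex, which changed in opposite directions. Smarca4 (BRG1) was at 9.57, 9.80 and 9.74 log2 in leukemia and at 10.21, 10.34 and 10.23 in wild-type and fell by 0.56 ± 0.09 (SE, limma adjusted p = 0.00370), while its second probe set gave -0.33. Smarca2 (BRM), the alternative ATPase, was at 8.48, 7.97 and 8.09 in leukemia and at 7.28, 7.58 and 7.34 in wild-type and rose by 0.78 ± 0.18 (SE, limma adjusted p = 0.0121), while its second probe set gave 1.24. Neither gene had overlapping groups, and the call of Smarca2 was lost without wild-type replicate 1 or 3.

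Of the 11 tested Smarc genes 1 rose and 5 fell (9.09% and 45.5%, beside 16.9% and 25.2% of all tested genes). Smarcc2 (BAF170), a core scaffold subunit, was at 8.10, 8.30 and 8.25 log2 in leukemia and at 9.04, 9.16 and 9.28 in wild-type and fell by 0.94 (limma adjusted p = 9.83e-04). Smarcb1 (SNF5), a core subunit and tumour suppressor, was at 8.08, 8.96 and 9.10 in leukemia and at 9.61, 9.65 and 9.73 in wild-type, lowest on leukemia replicate 1. It fell by 0.95 (limma adjusted p = 0.0243), by 0.64 without leukemia replicate 1 and by 1.59 when blocked on fluidics run, and its second probe set gave -0.09. Smarcad1 and Smarcal1, ATPases outside SWI/SNF, fell by 0.69 and 0.61 (limma adjusted p = 0.0267 and 0.0251), and a second probe set of Smarcad1 gave 0.27 with overlapping groups. The calls of Smarcb1, Smarcad1 and Smarcal1 were each lost when any 1 wild-type array was left out.

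The members vary in how far their further probe sets share the direction of the first. Apart from Dnmt1, opposite probe sets without overlap were also seen for Kat7, Kdm2a and Smarce1, which did not pass either. Of the 38 changed members 20 had a further probe set bright enough to test, and for 18 of these every further probe set had the sign of the first. The exceptions were Sin3b, whose further probe sets disagreed without overlap, and Smarcad1. Another 18 changed members rest on 1 bright probe set, among them Tet1, Hdac6, Hdac11 and Sirt3.

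**Figure D3:**
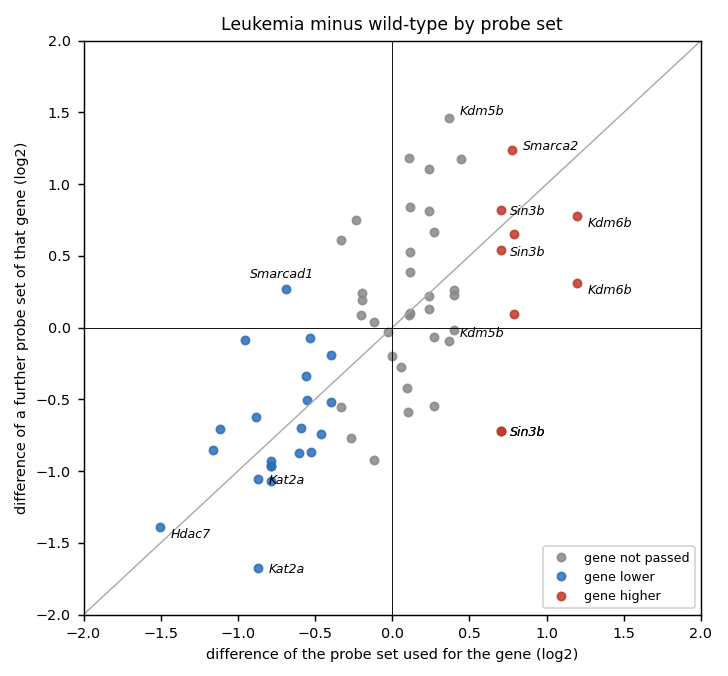
Difference in log2 intensity, leukemia minus wild-type, of each further probe set bright enough to test (vertical) against that of the probe set used for the gene (horizontal), with the line of equality. Kat2a and Hdac7 lie in the lower left, and the Sin3b points at -0.72 lie opposite to its chosen value of 0.70.

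The array runs were compared gene by gene because leukemia replicate 1 shared its run with the wild-type arrays. Both comparisons use the same wild-type arrays, so their values are only set side by side. The median of tested members was -0.31 log2 on leukemia replicate 1, -0.21 on replicate 2 and -0.08 on replicate 3, each taken against the wild-type mean. For Tet1 the difference was -3.76 on replicate 1 and -3.67 on replicates 2 and 3, for Hdac7 -1.48 and -1.52, and for Hdac11 1.18 and 1.57. Larger gaps were seen for Prmt2 (-1.34 and 0.63), Sirt4 (-0.81 and 0.91) and Smarcb1 (-1.59 and -0.64).

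**Figure D4:**
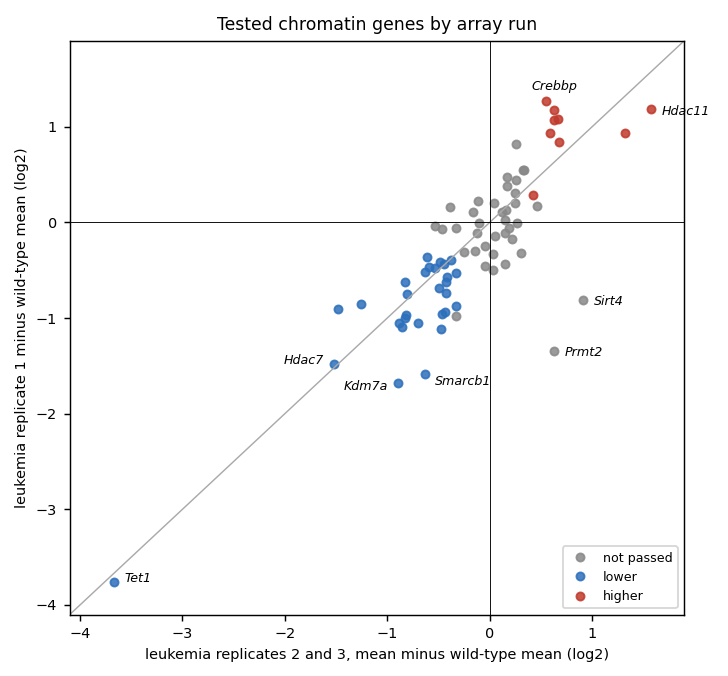
Difference from the wild-type mean in log2 intensity of leukemia replicate 1 (vertical) and of the mean of leukemia replicates 2 and 3 (horizontal) for the 75 tested members, with the line of equality. Tet1 lies on the line near -3.7, while Sirt4 and Prmt2 lie below 0 on replicate 1 only.

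Further genes, 158 listed by function as complex partners or for related steps, were lower more often than higher as well. Not all encode subunits of the members' complexes, since the lists also hold enzymes such as Idh1 and Idh2 and the Chd remodellers. Of 145 measured and 143 tested, 15 rose and 52 fell, that is 10.5% and 36.4%, beside 16.9% and 25.2% of all tested genes. The median difference was -0.27 log2. Without wild-type replicate 3 the lowered genes numbered 33, where 15.6% of all tested genes were lower.

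Among partners of the histone deacetylases 3 of 30 rose and 9 fell, where 16.9% of all tested genes rose and 25.2% fell (median of the partners -0.14). Gfi1, a repressor that recruits CoREST and Kdm1a in granulocyte precursors, was at 3.47 ± 0.24 log2 in leukemia and 8.51 ± 0.48 in wild-type (SD, n = 3 each) and fell by 5.04 (limma adjusted p = 2.26e-05). All its leukemia values lay below the 40th percentile, so it passed the filter through wild-type alone and the size of the fall is limited by background. Its erythroid counterpart Gfi1b was at 10.49 ± 0.54 in leukemia and 10.49 ± 0.55 in wild-type. The NuRD subunits Mta2 and Mbd3 fell by 1.16 and 0.92, while Mbd2, the methyl-DNA binding alternative to Mbd3, rose by 0.75. Cbfa2t2, an ETO family corepressor, rose by 0.72 and the CoREST scaffold Rcor1 by 0.37, and Cbfa2t3, another ETO relative, did not pass (difference -0.77). The calls of Mbd3 and Cbfa2t2 were lost when any 1 wild-type array was left out, that of Cbfa2t2 also without leukemia replicate 3, and that of Rcor1 without wild-type replicate 2 or 3 or leukemia replicate 3, or when blocked on fluidics run. Mbd3 fell by 0.57 without leukemia replicate 1. With the mean of probe sets Cbfa2t2 and Rcor1 did not pass (limma adjusted p = 0.0975 and 0.0741).

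Of 22 tested Polycomb partners 1 rose and 5 fell (4.55% and 22.7%, beside 16.9% and 25.2% of all tested genes, median -0.24). The chromobox genes Cbx6 and Cbx2, readers of lysine 27 methylation in PRC1, fell by 3.51 and 2.72 log2 (limma adjusted p = 1.62e-05 and 3.35e-04). Pcgf5 fell by 0.78, or 0.26 when blocked on fluidics run, where it did not pass, and Asxl2 rose by 0.42. The calls of Pcgf5 and Asxl2 were lost when any 1 wild-type array or leukemia replicate 2 or 3 was left out, and that of Asxl2 also under the run block.

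Of 26 further lysine methyltransferases and MLL partners 3 rose and 13 fell (11.5% and 50.0%, beside 16.9% and 25.2% of all tested genes, median -0.43). Men1 (menin), which tethers Kmt2a to chromatin, fell by 1.48 log2 (limma adjusted p = 0.00511), and Ehmt2 (G9a), a lysine 9 methyltransferase, fell by 1.40. Kmt5c and Kmt5b, which methylate lysine 20 of histone H4, moved apart: Kmt5c fell by 1.42 and Kmt5b rose by 1.14. Setdb2 and Nsd3 rose by 0.99 and 0.51. The call of Kmt5b was lost when any 1 wild-type array was left out, and its difference was 0.74 without leukemia replicate 1. With the mean of probe sets Ehmt2 was at -0.60 and Nsd3 at 0.37, and neither passed (limma adjusted p = 0.200 and 0.0501). Smyd2, singled out after its values were seen, was at 8.20, 9.87 and 3.95 in leukemia and 10.21 ± 0.05 in wild-type, a difference of -2.87 that did not pass.

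Of 24 acetyltransferase partners and readers 2 rose and 8 fell (8.33% and 33.3%, beside 16.9% and 25.2% of all tested genes, median -0.21). The coactivator Ncoa1 fell by 3.05 log2 and Ncoa3, its paralogue, rose by 0.93 (limma adjusted p = 3.49e-04 and 0.0117). Cited2, which binds CBP and p300, rose by 1.58, and the SAGA subunits Supt3 and Tada3 fell by 1.24 and 1.02. Among DNA methylation partners 2 of 15 rose and 8 fell (13.3% and 53.3%, beside 16.9% and 25.2% of all tested genes, median -0.50). Gadd45a, a stress-induced gene linked to demethylation, fell by 3.91 and Gadd45g rose by 1.34, while Zbtb38, a methyl-CpG binding factor, rose by 1.24. Idh1 and Idh2, isocitrate dehydrogenases whose product 2-oxoglutarate Tet enzymes use, fell by 1.48 and 1.26, but without probe sets of shared endings Idh2 differed by 0.0249. The list of SWI/SNF and ISWI partners, with Chd remodellers among its genes, had 26 tested. Of these 4 rose and 9 fell (15.4% and 34.6%, beside 16.9% and 25.2% of all tested genes, median -0.22). Dpf1, Chd2 and Chrac1 were higher by 1.20, 0.93 and 0.63. Chd7, Arid1b and Bcl7a were lower (differences -1.37, -0.91 and -0.68). The call of Chd2 was lost without wild-type replicate 3 and that of Arid1b without wild-type replicate 2 or 3. Blocked on fluidics run, Arid1b was at -0.42 and did not pass (limma adjusted p = 0.0651). With the mean of probe sets Bcl7a was at -0.29 and did not pass (limma adjusted p = 0.168).

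**Figure D5:**
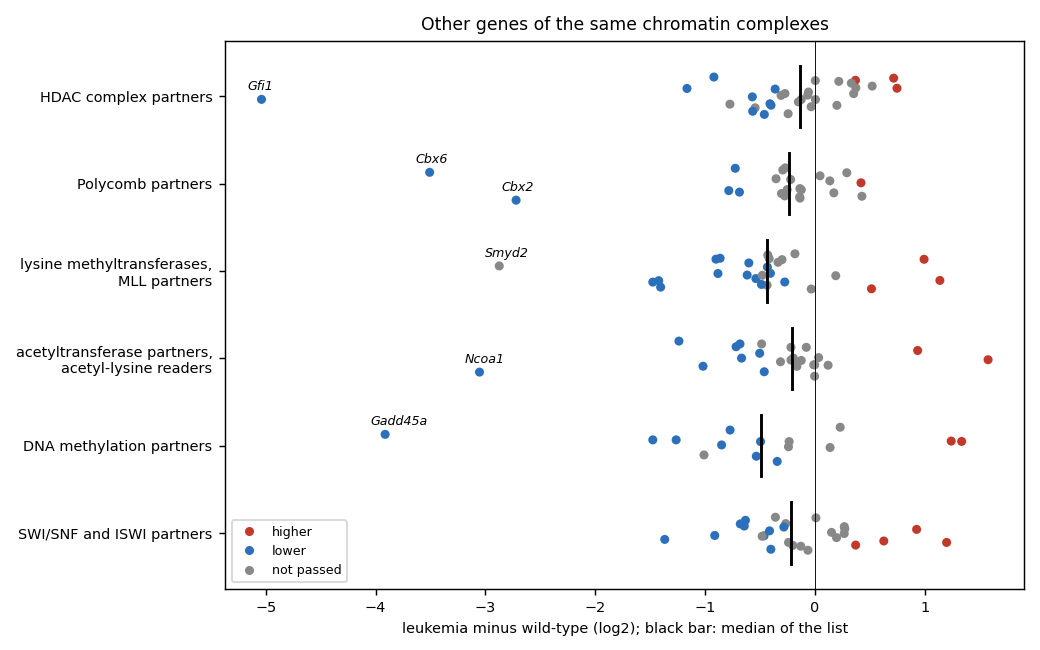
Difference in log2 intensity, leukemia minus wild-type, for each tested gene of 6 lists of complex partners and genes of related function, coloured by the limma call. A black bar stands at each list's median. Gfi1 lies at -5.04, and the medians run from -0.50 to -0.14.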

How the data were processed

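Sorted progenitors of 3 leukemia and 3 wild-type samples were measured on 1-colour Affymetrix arrays. The authors deposited linear intensity values. RMA is named in the submitters' processing notes, and its version and settings are not given in the sources used here. The test planned for log2 values was run on the log2 of the deposited intensity, with nothing added. Of 28821 probe sets, 23750 with 1 symbol in the platform annotation gave 13146 genes (677 probe sets had several symbols, 4355 none, 39 were controls); 9715 genes passed the filter and 3431 were dim. Affymetrix detection calls were not used. The groups were tested by limma 3.58.1 under R 4.3.3 (linear models with moderated variances that follow intensity, two-sided, Benjamini-Hochberg adjustment, 4 residual degrees of freedom), tested on simulated data. Members, the 6 partner lists, marker lists and tests were chosen with earlier results of these data known. Members named were a panel of 29 (26 measured), those changed at least 2-fold without overlap, and up to 2 per direction and role; from each partner list up to 3 per direction. Partner symbols without a probe set were looked up among RefSeq synonyms. Fluidics runs were arrays sharing a hybridization entry (2 runs, 1 chip lot, per the file headers). Same-numbered samples share only a number: their deviations from group means correlated at -0.07, 0.05 and 0.03. Promoter sequences and names are RefSeq's (GRCm38.p6). Alternatives covered the filter, probe set rule, normalization, log scale, variance moderation, array weights, blocks and each array left out. Figures used matplotlib 3.10.9.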

Additional observations from a re-analysis of the deposited data

Results flagged for a closer look

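A probe set annotated to both Kdm6b and 1700064E03Rik, and therefore used for neither gene, was at 7.54, 7.80 and 7.76 log2 in leukemia and at 6.52, 6.40 and 6.26 in wild-type, a difference of 1.31 (exact permutation p = 0.1, two-sided, the smallest that 3 against 3 allows). It stood out as a signal outside the gene comparison that was above all wild-type arrays. Any such separation of 3 against 3 gives this p, so the p carries no further support. The probe set used for Kdm6b differed by 1.19. The 5′ control probe set for 18S ribosomal RNA was above the wild-type level in the same way, at 11.58 ± 0.67 log2 in leukemia and 8.45 ± 0.85 in wild-type (SD, n = 3 each, difference 3.13, exact permutation p = 0.1, two-sided). Its part in the differences of the chromatin genes was not tested. Groups of 3 arrays are too small for a test of single outlying samples.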

How the results depend on the processing

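Across 18 alternatives, 18 of the 38 changed members kept direction and call wherever they could be fitted: Tet1, Dnmt3a, Hdac2, Hdac6, Hdac7, Hdac11, Sirt2, Sirt3, Sirt7, Kat2a, Kat6b, Kat14, Kmt2a, Kmt2b, Kdm3a, Prmt1, Smarca4 and Smarcc2. The other 20 lost the call at least once. The main values were 4089 changed genes, 9 higher and 29 lower members, 15 higher and 52 lower partner genes and member medians of -0.14 (tested) and -0.16 (all 76). With 1 array left out, changed genes numbered 2647 to 4716, higher members 5 to 10, lower members 16 to 31, higher partners 10 to 16, lower partners 33 to 62, and the medians ran from -0.21 to -0.12 and from -0.24 to -0.13. Fewer arrays and residual degrees of freedom enter these fits. When blocked on fluidics run, 5132 genes changed, 6 members lost their call (Dnmt3b, Hdac4, Sirt5, Kat2b, Kdm4a and Kdm4b) and 6 gained one. The median of tested members was then -0.31, that of leukemia replicate 1 alone, and Sirt4 turned to -0.81 (limma adjusted p = 0.0164). Also reversed were Sin3b (-0.72) and Idh2 (0.0249) with probe sets free of shared endings and Prmt3 (0.22) with the mean of probe sets, where the probe sets of a gene differ. Median centring gave 11 higher and 25 lower members with a median of -0.07 (all genes -0.01) and ended the calls of Dnmt3b, Hdac4, Kdm4a and Kdm4b, and the mean of probe sets ended those of Eed, Sin3a, Sin3b and Smarcad1. With the replicate block, 3565 genes changed, with 8 higher and 25 lower members, and 5 members lost their call (Dnmt3b, Hdac4, Kat2b, Kdm4a and Kdm4b). The 60th percentile filter left 65 members, 8 higher and 25 lower, and 42.6% of genes changed. Signal near background limits Gfi1, Gadd45a and Chd7, dim on all leukemia arrays, and Tet1, Hdac11, Kdm7a and Sirt5, the changed members that lay below the 40th percentile on at least 1 array.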
